A study of Mus musculus with 6 samples.

Results

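The transcription factors that define the adult hepatocyte were followed across 6 arrays of liver cells. The cells came from mice with Cre-driven deletion of Ddb1, mice fed the liver toxin DDC, a dihydro-collidine compound, and wild type mice. The set holds 9 genes, Hnf4a, Cebpa, Foxa1, Foxa2, Foxa3, Nr5a2, Onecut1, Prox1 and Nr1i3, and its members are all probes that the platform annotation assigns to these symbols. That gave 16 of the 45281 probes on the array and 8 of the 19057 annotated genes, because Onecut1 had no annotated probe. The probes were taken by gene name.

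Each of 6 conditions was hybridised to 1 Illumina MouseWG-6 v2 bead array, so none was replicated. EpCAM+ cells, the fraction that holds bile duct epithelium and oval cells (the progenitor-like cells of a ductal reaction), were sorted from non-parenchymal liver cells by flow cytometry. They came from DDB1F/F;Alb-Cre+/+ mice aged 4 weeks, DDB1F/F;Alb-Cre+/- mice aged 6 weeks, DDB1F/F;MX1-Cre+/- mice (Mx1-Cre below) and mice on the DDC diet, a chemical liver injury. Hepatocytes came from DDB1F/F;Alb-Cre+/+ mice and from wild type mice. All 6 samples carry the same strain label, mixed C57BL/6 x 129. Both Alb-Cre genotypes and the Mx1-Cre genotype carry floxed Ddb1 alleles, and the wild type sample carries no labelled allele. The methods give the DDC-fed mice as wild type. The albumin promoter drives Cre in hepatocytes, and the Mx1 promoter drives it after an interferon response and is not limited to liver cells. For staining and transplantation, the paper used adult Mx1-Cre mice 6 weeks after injecting the inducer poly(I:C). The source label of the Mx1-Cre array does not state this treatment, which would differ from the other samples. The paper describes the oval cells of the mutants as still expressing DDB1. Ages of the other 4 samples and the number of mice behind each sample are not given in the sources used here, so condition, age and array cannot be told apart.

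The 9 factors act as a network that switches on and holds the hepatocyte programme. Hnf4a and the forkhead factors Foxa1, Foxa2 and Foxa3 bind many liver enhancers and one another's genes, Cebpa and Nr5a2 control metabolic and bile acid genes, and Nr1i3 is a xenobiotic sensor of the mature hepatocyte. Onecut1 and Prox1 act early in liver development, and several of the 9, Foxa1 and Foxa2 among them, are also made in bile duct cells.

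The sequence upstream of each annotated RefSeq start of the factors was read for sites of the network itself, as a reference for the values that follow. Shown are the 250 bases before the start, 5′ to 3′ on the strand of the gene, for the upstream start of Hnf4a and for the 3 genes with a probe that passed the test between EpCAM+ and hepatocyte arrays below. Capitals mark matches, on either strand, to ATTGAT (ONECUT), TGTTTAC (FOXA), CAAAGTCCA (HNF4), CAAGGTCA (NR5A) or TTGCNNAA (CEBP). The coordinates and sequences are those of RefSeq on GRCm38.p6, in this order: Hnf4a start 1 is chr2:163506607-163506856 on the plus strand, Foxa1 is chr12:57546112-57546361 on the minus strand, Foxa3 is chr7:19023540-19023789 on the minus strand and Nr1i3 is chr1:171213720-171213969 on the plus strand.
Hnf4a start 1: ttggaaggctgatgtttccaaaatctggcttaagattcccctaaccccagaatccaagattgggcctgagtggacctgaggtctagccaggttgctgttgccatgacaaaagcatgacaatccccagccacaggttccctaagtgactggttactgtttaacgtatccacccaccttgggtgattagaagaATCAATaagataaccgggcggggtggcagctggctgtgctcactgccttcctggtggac
Foxa1: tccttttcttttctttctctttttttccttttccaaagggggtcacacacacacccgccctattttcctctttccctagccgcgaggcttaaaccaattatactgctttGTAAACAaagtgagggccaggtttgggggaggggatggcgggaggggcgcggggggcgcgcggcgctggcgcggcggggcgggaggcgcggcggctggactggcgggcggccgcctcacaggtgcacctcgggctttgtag
Foxa3: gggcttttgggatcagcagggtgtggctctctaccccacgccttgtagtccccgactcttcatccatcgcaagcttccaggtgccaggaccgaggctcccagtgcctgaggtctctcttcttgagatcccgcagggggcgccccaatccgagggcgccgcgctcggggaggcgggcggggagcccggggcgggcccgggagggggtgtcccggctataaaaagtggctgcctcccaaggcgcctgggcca
Nr1i3: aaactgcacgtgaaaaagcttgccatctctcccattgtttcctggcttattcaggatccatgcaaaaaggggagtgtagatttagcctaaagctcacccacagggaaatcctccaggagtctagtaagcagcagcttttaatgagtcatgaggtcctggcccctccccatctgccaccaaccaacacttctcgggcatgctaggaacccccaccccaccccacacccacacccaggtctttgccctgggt

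The upstream Hnf4a start held 1 ONECUT match, 59 to 54 bases before the start. The downstream Hnf4a start held no match. Foxa1 held 1 match to the FOXA motif at 141 to 135 bases, and Foxa3 and Nr1i3 held none of the 5 motifs. The Foxa1 window lies wholly inside the annotated gene (chr12:57540628-57548029), so its match is not upstream of the gene. The windows of Hnf4a start 1 and Nr1i3 run past the annotated gene starts (163506811 and 171213934). Of all 14 starts of the 9 genes, 10 had no match. Among 32851 promoters of the same length, 6.72% held ATTGAT, 3.17% TGTTTAC, 0.384% CAAAGTCCA, 1.33% CAAGGTCA and 9.56% TTGCNNAA. A match describes letters in this window and does not show binding. Which Hnf4a start the array probe reports is not known here.

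Signals below are the authors' quantile normalized intensities, linear and without unit. A reading is called above background where its detection p-value, set by negative control beads, is under 0.05. Between 11429 (wild type hepatocytes) and 17152 (DDC EpCAM+) probes were above background, and the lowest such signal was 159.2 on the wild type hepatocyte array and 110.3 to 119 on the other 5. The labels give the tissue as mammary, whereas the paper describes liver. Of 6 mammary markers, 0 were above background on any array, and 9 of the 11 measured hepatocyte markers were above background on both hepatocyte arrays. Ddb1 itself read 169 in Alb-Cre+/+ hepatocytes, against 499.2 in wild type hepatocytes, and 205.1 to 317.5 on the 4 EpCAM+ arrays. Whether its probe covers a deleted exon is not known here.

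Of the 96 member readings, 53 were above background. Of the 16 probes, 5 were above background on every array and 2 (the second probes of Foxa2 and Prox1) on none. Counted as genes, the members above background numbered 6 (Alb-Cre+/+), 7 (Alb-Cre+/-), 5 (Mx1-Cre) and 6 (DDC) in EpCAM+ cells, with 7 in Alb-Cre+/+ hepatocytes and 5 in wild type hepatocytes. For these 53 readings the standard error over the beads of 1 array was 4.72% to 9.98% of the signal (median 6.14%). It measures error within 1 array only and says nothing of the spread between mice. Probes of a gene are numbered from the brightest.

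**Figure D1:**
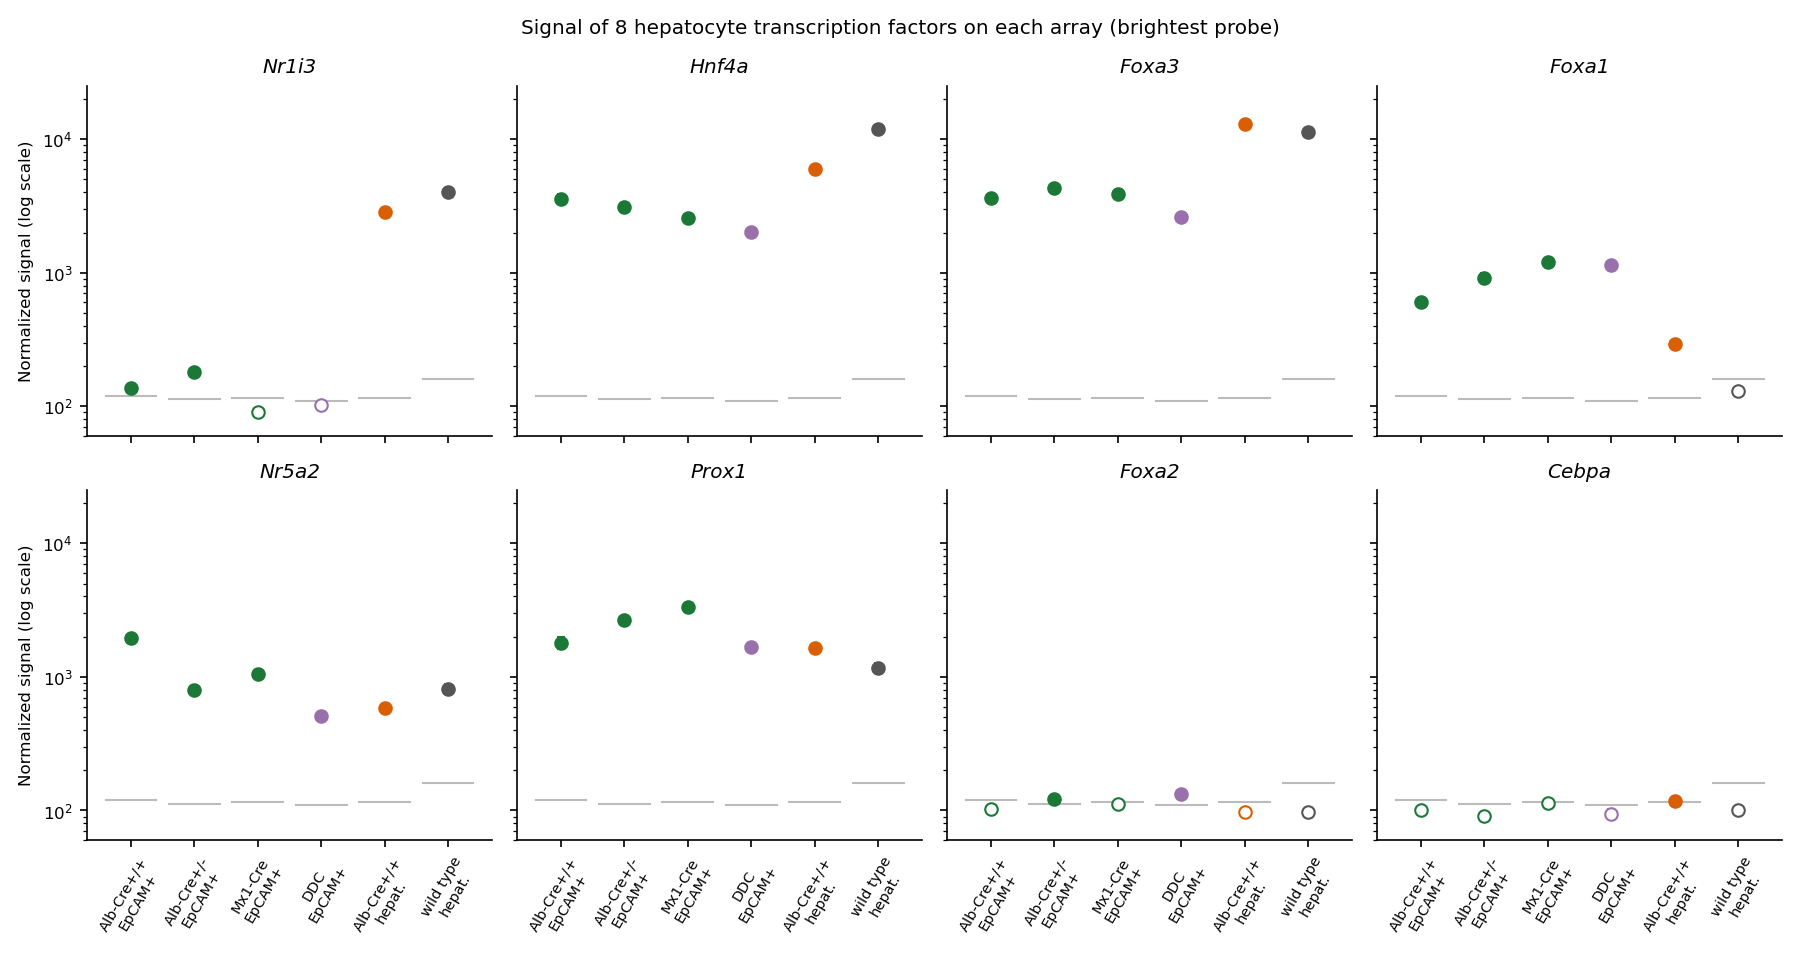
Normalized signal (log axis) of the brightest probe of each of the 8 measured factors on the 6 arrays, EpCAM+ cells on the left and hepatocytes on the right. Filled points are above background, open points are not, error bars (1 bead standard error, mostly smaller than the points) cover error within an array, and grey bars mark the lowest signal above background on each array. Nr1i3, Hnf4a and Foxa3 sit higher on both hepatocyte arrays, Foxa1 sits higher on all 4 EpCAM+ arrays, and Foxa2 and Cebpa lie near background throughout.

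The comparison of cell fractions asked how far EpCAM+ cells carry the hepatocyte factors. The 4 EpCAM+ arrays were set against the 2 hepatocyte arrays with limma over the 21827 probes above background on at least 1 array, with p-values adjusted by the Benjamini-Hochberg method over all of them. Replicates here are conditions, so the p-values measure the spread between models, and 4 against 2 arrays make 15 splits, so that an exact test of a single probe could not go under p = 0.067. In bulk samples such as these, fewer cells of a type and less RNA per cell cannot be told apart. Of the 16 member probes, 14 passed the filter and were tested. Of these, 1 was higher in EpCAM+ cells (Foxa1), against a background of 2.70% of all probes, and 4 were lower (Foxa3 and 3 probes of Nr1i3), against 4.36%. At the brightest probe of each gene, 1 of 8 member genes was higher, against 3.62% of all genes, 2 of 8 were lower, against 4.79%, and 5 passed in neither direction.

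Nr1i3, the constitutive androstane receptor, which senses foreign compounds in mature hepatocytes, showed the widest gap. Its brightest probe (ILMN_2588846) gave 137.1 (Alb-Cre+/+), 181.7 (Alb-Cre+/-), 90.79 (Mx1-Cre) and 102.7 (DDC) in EpCAM+ cells, against 2864.4 in Alb-Cre+/+ hepatocytes and 4019.4 in wild type hepatocytes. The Mx1-Cre and DDC readings were not above background, and the groups did not overlap. EpCAM+ arrays were lower by a log2 difference of -4.66 (SE 0.30, limma adjusted p = 0.0055, n = 4 and 2). Against wild type hepatocytes the signal was 29.3-fold lower in Alb-Cre+/+ and 22.1-fold lower in Alb-Cre+/- EpCAM+ cells, and at least 35.0-fold lower in Mx1-Cre and at least 36.4-fold lower in DDC EpCAM+ cells. Normexp background correction widened these folds to 45.9-fold (Alb-Cre+/+), at least 62.7-fold (Mx1-Cre) and at least 69.6-fold (DDC). Here and below, "at least" sets the brighter reading against the lowest signal above background on the dimmer array.

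The other Nr1i3 probes gave the same order of cell fractions at lower signals. Probe 2 read 83.09 to 110.7 on the EpCAM+ arrays, none above background, against 2149.9 in Alb-Cre+/+ hepatocytes and 2224.3 in wild type hepatocytes (at least 19.2-fold lower, limma adjusted p = 0.0047). Probe 3 read 85.05 to 100.2, none above background, against 1250.5 in Alb-Cre+/+ hepatocytes and 1683.8 in wild type hepatocytes (at least 12.7-fold lower, limma adjusted p = 0.0055). Probes 4 and 5 were dim in hepatocytes too. Probe 4 read 99.3 to 115 on the EpCAM+ arrays, against 245.7 in Alb-Cre+/+ hepatocytes and 621 in wild type hepatocytes (log2 difference -1.77, SE 0.38, limma adjusted p = 0.057). Probe 5 read 94.01 to 103.4, against 167.5 in Alb-Cre+/+ hepatocytes and 291.2 in wild type hepatocytes (limma adjusted p = 0.068). Probes 4 and 5 each passed in 6 of 15 alternatives, with adjusted p from 1.2e-04 to 0.16 at probe 4 and from 7.2e-05 to 0.23 at probe 5 over all 15. Signals under 115 were raised to that floor before the log, so the EpCAM+ arrays had almost no spread at probes 2 to 5 and the p-values there rest on the 2 hepatocyte arrays and the spread shared over probes. The calls at probes 1, 2 and 3 held under every alternative tried (adjusted p up to 0.037).

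**Figure D2:**
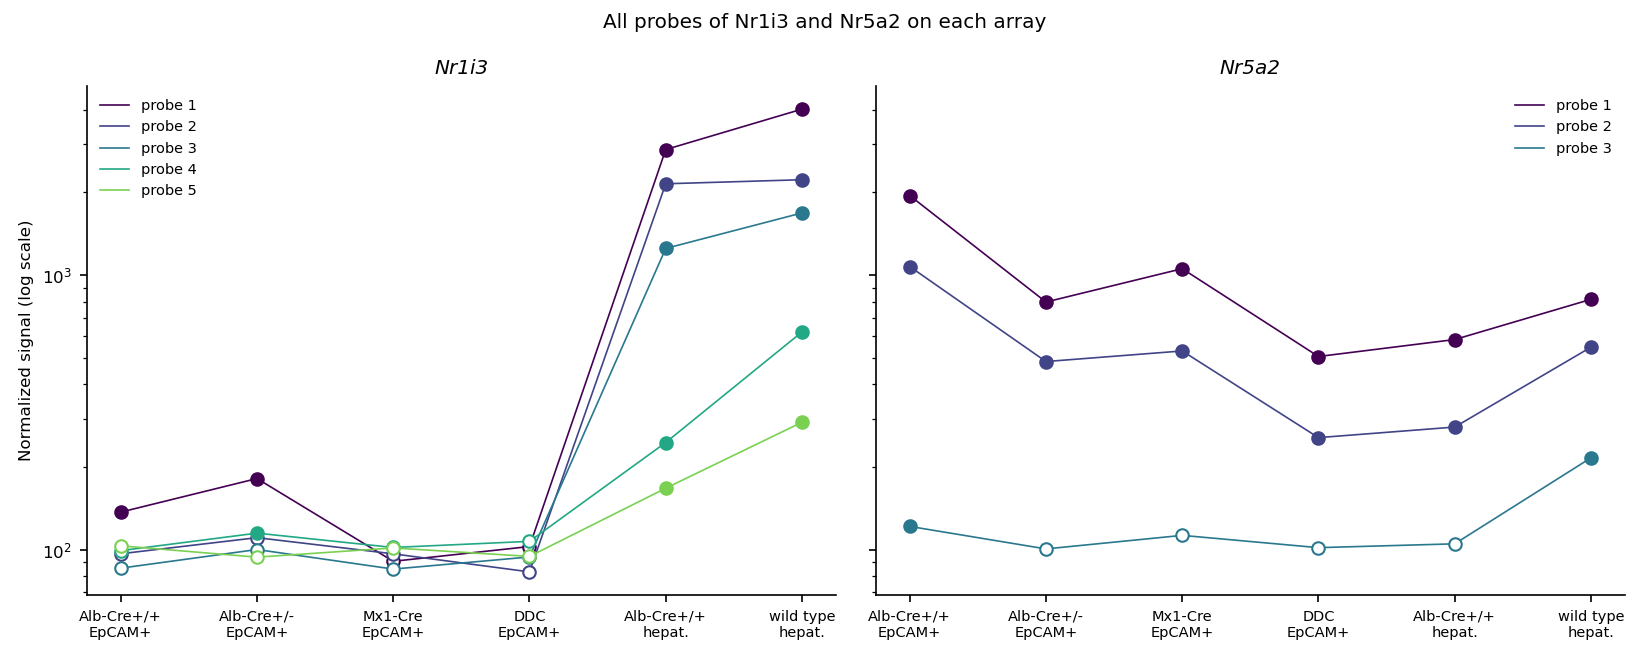
Normalized signal (log axis) of all 5 Nr1i3 probes (left) and all 3 Nr5a2 probes (right) on the 6 arrays, with filled points above background and open points not. Lines only join readings of 1 probe. Every Nr1i3 probe is highest in wild type hepatocytes, while Nr5a2 probes 1 and 2 are highest in Alb-Cre+/+ EpCAM+ cells and lowest in DDC EpCAM+ cells.

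Hnf4a, the nuclear receptor that maintains the differentiated hepatocyte, was bright on every array. Its only probe (ILMN_1237767) gave 3575.7 (Alb-Cre+/+), 3130.0 (Alb-Cre+/-), 2577.0 (Mx1-Cre) and 2001.7 (DDC) in EpCAM+ cells, against 5999.5 in Alb-Cre+/+ hepatocytes and 11951.0 in wild type hepatocytes. The groups did not overlap, yet the difference did not pass the test (log2 difference -1.62, SE 0.37, limma adjusted p = 0.066). Over the 16 alternatives the adjusted p ran from 0.0087 to 0.22, and it was under 0.05 in 4 of them, among them median scaling (log2 difference -2.21, adjusted p = 0.0087) and the fit without the Alb-Cre+/+ hepatocytes (log2 difference -2.12, adjusted p = 0.035). The EpCAM+ signals stood at 29.9% (Alb-Cre+/+), 26.2% (Alb-Cre+/-), 21.6% (Mx1-Cre) and 16.7% (DDC) of wild type hepatocytes. In the order of levels, each neighbouring pair differed by more than 2 bead standard errors except Alb-Cre+/+ and Alb-Cre+/- EpCAM+ cells. The order among EpCAM+ samples depended on the normalization: with median scaling the log2 folds over wild type hepatocytes were -2.64 (Alb-Cre+/+), -2.57 (Alb-Cre+/-), -2.59 (Mx1-Cre) and -2.84 (DDC).

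Hepatocyte marker signal was lower on the EpCAM+ arrays too. The summed signal of the measured hepatocyte markers above background was 17291.5 in DDC to 58268.6 in Alb-Cre+/- EpCAM+ cells, against 188339 in Alb-Cre+/+ hepatocytes and 249464 in wild type hepatocytes. Ttr, the thyroxine carrier, made up most of it in EpCAM+ cells, with 14735.1 to 46559.5 there, against 51175.3 in Alb-Cre+/+ hepatocytes and 56590.3 in wild type hepatocytes. Of 11 markers, 6 to 9 were above background on the EpCAM+ arrays. The median marker stood at 4.17% to 10.8% of its wild type hepatocyte signal on the EpCAM+ arrays, with Alb, albumin, not above background in Alb-Cre+/+ and DDC EpCAM+ cells. The Alb probe was dim in hepatocytes too, with 228.6 in Alb-Cre+/+ hepatocytes and 794.3 in wild type hepatocytes. The part of carried-over hepatocytes in the Hnf4a and Foxa3 signals was not tested.

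Foxa3, a forkhead factor of liver and gut endoderm, fell in EpCAM+ cells. Its probe (ILMN_1228748) gave 3601.6 (Alb-Cre+/+), 4289.2 (Alb-Cre+/-), 3910.1 (Mx1-Cre) and 2592.2 (DDC) in EpCAM+ cells, against 12992.8 in Alb-Cre+/+ hepatocytes and 11321.7 in wild type hepatocytes. All 4 EpCAM+ arrays lay below both hepatocyte arrays, with a log2 difference of -1.78 (SE 0.24, limma adjusted p = 0.019). Against wild type hepatocytes the signal was 3.14-fold (Alb-Cre+/+), 2.64-fold (Alb-Cre+/-), 2.90-fold (Mx1-Cre) and 4.37-fold (DDC) lower. Median scaling moved the Alb-Cre+/+ value to 5.79-fold and the Alb-Cre+/- value to 4.14-fold lower. In the order of levels, the 3 mutant EpCAM+ arrays followed each other by less than 2 bead standard errors, as did the 2 hepatocyte arrays. The call was lost without Alb-Cre+/+, Alb-Cre+/- or Mx1-Cre EpCAM+ cells or without wild type hepatocytes (adjusted p = 0.055 to 0.068, log2 differences between -1.88 and -1.79), and over all alternatives the adjusted p ran from 0.0037 to 0.074.

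Foxa1, the forkhead factor that opens chromatin in many epithelia as well as liver, went the other way. Its probe (ILMN_1237195) gave 600.7 (Alb-Cre+/+), 920 (Alb-Cre+/-), 1210.4 (Mx1-Cre) and 1140.5 (DDC) in EpCAM+ cells, against 293 in Alb-Cre+/+ hepatocytes and 131.2 in wild type hepatocytes, the last not above background. The groups did not overlap, and EpCAM+ cells were higher by a log2 difference of 2.25 (SE 0.45, limma adjusted p = 0.049). Over wild type hepatocytes the signal was at least 3.77-fold (Alb-Cre+/+), 5.78-fold (Alb-Cre+/-), 7.60-fold (Mx1-Cre) and 7.16-fold (DDC) higher. The call was lost with median scaling (adjusted p = 0.056) and without each array in turn other than Alb-Cre+/+ hepatocytes (adjusted p = 0.069 to 0.16), and over all alternatives the adjusted p ran from 0.01 to 0.16. Duct markers were also higher on the EpCAM+ arrays. Of 7 measured cholangiocyte and oval cell markers, 6 to 7 were above background on the EpCAM+ arrays, with summed signals of 37295.3 to 56836.1, against 6 in Alb-Cre+/+ hepatocytes (7051.1) and 1 in wild type hepatocytes (705.5). Among EpCAM+ samples these markers did not share 1 order. Sox9 was lowest in Alb-Cre+/+ (15747.9) and highest in Mx1-Cre (29639.0), as Foxa1 was. Krt7 was highest in Alb-Cre+/+ (6310.7) and lowest in Mx1-Cre (2086.5). The probe of Epcam, the sort marker, was near background. It read 125.6 (Alb-Cre+/+), 112.1 (Alb-Cre+/-, not above background), 161.9 (Mx1-Cre) and 176.6 (DDC) in EpCAM+ cells. The part of duct cells in the Foxa1 signal was not tested.

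Foxa2, a forkhead factor that also regulates bile acid transport, stayed close to background. Its brighter probe read 102.3 (Alb-Cre+/+), 122.4 (Alb-Cre+/-), 112.6 (Mx1-Cre) and 131.8 (DDC) in EpCAM+ cells, against 97.53 in Alb-Cre+/+ hepatocytes and 97.34 in wild type hepatocytes, and only the Alb-Cre+/- and DDC readings were above background. The log2 difference was 0.07 (SE 0.06, limma adjusted p = 0.54) and turned to -0.08 with median scaling.

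Nr5a2, a nuclear receptor of bile acid and cholesterol metabolism, varied more among the EpCAM+ arrays than between the fractions. Probe 1 (ILMN_2634389) gave 1947.9 (Alb-Cre+/+), 797.9 (Alb-Cre+/-), 1055.2 (Mx1-Cre) and 505.4 (DDC) in EpCAM+ cells, against 582.6 in Alb-Cre+/+ hepatocytes and 816.2 in wild type hepatocytes. The groups overlapped (log2 difference 0.47, SE 0.56, limma adjusted p = 0.67). Probe 2 gave 1074.4, 484.5, 529.4 and 256.1 in EpCAM+ cells of Alb-Cre+/+, Alb-Cre+/-, Mx1-Cre and DDC mice, against 279.7 in Alb-Cre+/+ hepatocytes and 546.5 in wild type hepatocytes (log2 difference 0.40, SE 0.63, limma adjusted p = 0.71). Both probes put Alb-Cre+/+ EpCAM+ cells highest and DDC EpCAM+ cells lowest. Probe 3 was above background only in Alb-Cre+/+ EpCAM+ cells (121.6) and wild type hepatocytes (216.2), and it passed only without Alb-Cre+/+ hepatocytes (log2 difference -0.89, limma adjusted p = 0.0011).

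Prox1, a homeobox factor of hepatoblasts, hepatocytes and lymphatic endothelium, gave 1794.4 (Alb-Cre+/+), 2657.4 (Alb-Cre+/-), 3357.7 (Mx1-Cre) and 1673.8 (DDC) in EpCAM+ cells, against 1645.0 in Alb-Cre+/+ hepatocytes and 1167.7 in wild type hepatocytes (ILMN_2598766). The EpCAM+ readings lay above both hepatocyte readings, but Alb-Cre+/+ EpCAM+ cells, DDC EpCAM+ cells and Alb-Cre+/+ hepatocytes followed each other by less than 2 bead standard errors, and the difference did not pass the test (log2 difference 0.72, SE 0.35, limma adjusted p = 0.32). Of 4 lymphatic markers, Pdpn and Lyve1 were above background on all 3 mutant EpCAM+ arrays and in Alb-Cre+/+ hepatocytes, Pdpn alone in DDC EpCAM+ cells and Ccl21a alone in wild type hepatocytes. Lyve1, also made by sinusoidal endothelium, read 219 (Alb-Cre+/+), 441.8 (Alb-Cre+/-), 473.1 (Mx1-Cre) and 109.6 (DDC, not above background) in EpCAM+ cells. Within EpCAM+ cells Prox1 had the same order, but its Alb-Cre+/+ and DDC readings differed by less than 2 bead standard errors. In hepatocytes Lyve1 read 393.9 (Alb-Cre+/+) and 98.25 (wild type, not above background). The shared order did not extend to hepatocytes. Lyve1 was higher in Alb-Cre+/+ hepatocytes than in Alb-Cre+/+ EpCAM+ cells, and Prox1 was not. Pdpn, also made by other cells, had a different order from Prox1 within EpCAM+ cells. It read 1888.2 (Alb-Cre+/+), 3269.7 (Alb-Cre+/-), 1408.7 (Mx1-Cre) and 6948.7 (DDC) there. Flt4 was not above background on any array. The part of lymphatic cells in the Prox1 signal was not tested.

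Cebpa, a leucine zipper factor of the mature hepatocyte, was above background on 1 of 6 arrays. It read 91.68 to 113.3 on the EpCAM+ arrays, against 118 in Alb-Cre+/+ hepatocytes (above background) and 101.5 in wild type hepatocytes. With readings not above background in wild type hepatocytes or any EpCAM+ sample, a difference was not detectable with this probe and no fold is given. Onecut1, a homeobox factor of early liver and bile duct development, was not measured.

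**Figure D3:**
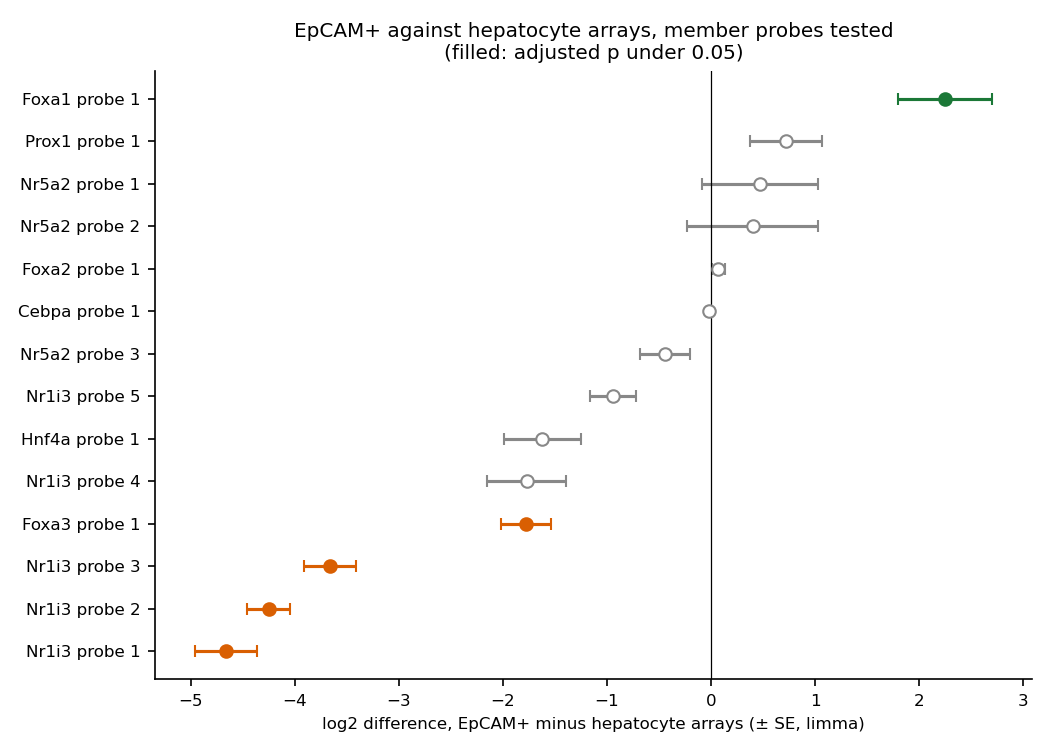
log2 difference of the 4 EpCAM+ minus the 2 hepatocyte arrays for the 14 member probes tested, with the limma standard error as bars. Filled points passed at an adjusted p under 0.05 and open points did not. Foxa1 is the 1 probe called higher, and Foxa3 and Nr1i3 probes 1 to 3 are the 4 called lower, while Hnf4a at -1.62 is open.

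Single conditions were then set against wild type hepatocytes at the 2-fold threshold of the study's methods, with 1 array each and no test. The same 3 members, Hnf4a, Foxa3 and Nr1i3, were over 2-fold lower in each of the 4 EpCAM+ samples, and these comparisons share the wild type array. In Alb-Cre+/+ EpCAM+ cells, 2 of the 6 members above background on either array were over 2-fold higher (Foxa1 and Nr5a2), against 19.1% of all genes, and 3 were lower, against 17.3%. In Alb-Cre+/- EpCAM+ cells, 2 of 7 were higher (Foxa1 and Prox1, 2.28-fold), against 17.8%, and 3 lower, against 15%. In Mx1-Cre EpCAM+ cells, 2 of 6 were higher (Foxa1 and Prox1, 2.88-fold), against 18.3%, and 3 lower, against 14.8%. In DDC EpCAM+ cells, 1 of 7 was higher (Foxa1), against 17.8%, and 3 lower, against 15.7%. Relative to wild type hepatocytes, the Nr5a2 signal of EpCAM+ cells was up 2.39-fold with Alb-Cre+/+ and 1.29-fold with Mx1-Cre. It was down 1.02-fold with Alb-Cre+/- and 1.62-fold after DDC, and both of these signs turned with median scaling (log2 fold 0.43 and 0.07). Median scaling also took Nr5a2 in Mx1-Cre EpCAM+ cells (2.04-fold) and Prox1 in DDC EpCAM+ cells (2.28-fold, against 1.43-fold as reported) past 2-fold higher. Nr5a2 probe 2 was 2.13-fold lower in DDC EpCAM+ cells.

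In Alb-Cre+/+ hepatocytes, set against wild type hepatocytes, 0 of 7 members were over 2-fold higher at their brightest probe, against 9.43% of all genes, and 0 of 7 were over 2-fold lower, against 8.59%. Hnf4a was 1.99-fold lower, Nr1i3 and Nr5a2 were both 1.40-fold lower, Prox1 was 1.41-fold higher and Foxa3 1.15-fold higher. Foxa1 was at least 1.84-fold higher, a bound that does not decide whether it passed 2-fold. With median scaling Prox1 was 2.47-fold higher and the sign of Nr5a2 turned (log2 fold 0.25), and with normexp background correction Foxa1 was at least 2.21-fold higher and Hnf4a lay just past the threshold at 2-fold lower. Nr1i3 probe 4, a dim probe, was 2.53-fold lower. The Alb-Cre+/+ hepatocytes also held more summed signal of the duct markers above than wild type hepatocytes. The same held for macrophage markers (6357.8 against 1375.0) and endothelial markers (15170.2 against 2907.1). Above background were 5 against 3 of 5 measured macrophage markers and 7 against 5 of 7 endothelial markers. These counts depend on the background limit, which was higher on the wild type array. Alas2, an erythroid marker, and Kdr, an endothelial marker, went the other way (158.2 against 2415.8 and 126.1 against 262.1). The part of other cells in these folds was not tested.

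Within the Alb-Cre+/+ genotype, EpCAM+ cells could be set against hepatocytes of the same alleles, though of unstated age for the hepatocytes. Here 2 of 7 members were over 2-fold higher in EpCAM+ cells (Nr5a2, 3.34-fold, and Foxa1, 2.05-fold), against 14.7% of all genes. Another 2 of 7 were lower (Nr1i3, 20.9-fold, and Foxa3, 3.61-fold), against 12.9%. Hnf4a was 1.68-fold lower and Prox1 1.09-fold higher, and the sign of Prox1 turned with median scaling (log2 fold -0.59). With that scaling Hnf4a was 3.36-fold lower and Foxa3 7.17-fold lower, while Nr5a2 was 2.19-fold higher and Foxa1 1.55-fold higher.

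The 3 mutant EpCAM+ samples were compared with the DDC sample to ask whether genetic and chemical injury differ in these factors. In a limma fit of 3 groups, in which the lone DDC array is assumed to vary like the others, 0 of 14 member probes were higher, against 0.0229% of all probes, and 0 were lower, against 1.92%. Neither Foxa3 (log2 difference 0.60, SE 0.19) nor Foxa2 (-0.17, SE 0.05) passed, and Foxa2 was near background. Nr5a2 had the largest difference, 1.22 at probe 1 (SE 0.59, limma adjusted p = 0.89) and 1.35 at probe 2 (SE 0.67, limma adjusted p = 0.92). At probe 1 the Alb-Cre+/+ sample exceeded DDC EpCAM+ cells 3.85-fold, the Alb-Cre+/- sample 1.58-fold and the Mx1-Cre sample 2.09-fold. Hnf4a was 1.79-fold (Alb-Cre+/+), 1.56-fold (Alb-Cre+/-) and 1.29-fold (Mx1-Cre) higher than in DDC EpCAM+ cells, without passing the test (log2 difference 0.62, SE 0.46, limma adjusted p = 1). Median scaling moved the Alb-Cre+/+ values to 1.15-fold for Hnf4a and 2.49-fold for Nr5a2. Markers of other cells differed too. The summed signal of hepatocyte markers, most of it Ttr, was 40150.7 to 58268.6 in the mutant EpCAM+ samples, against 17291.5 in DDC EpCAM+ cells. The median hepatocyte marker did not separate mutant from DDC samples. It stood at 9.16% (Alb-Cre+/+), 10.8% (Alb-Cre+/-), 4.17% (Mx1-Cre) and 6.39% (DDC) of its wild type hepatocyte signal. The summed signal of 7 endothelial markers, most of it Clec4g, was 15866.0 to 31775.8 in the mutant samples, against 1872.2 in the DDC sample. All 7 were above background in each mutant sample and 4 in the DDC sample. Macrophage markers summed to 6315.5 in Alb-Cre+/- EpCAM+ cells, against 1079.1 (Alb-Cre+/+), 468.4 (Mx1-Cre) and 582.8 (DDC). The part of hepatocytes, endothelial cells and macrophages was not tested. These comparisons cannot separate the diet from the single array that carries it.

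Other genes of the network place the members. Of 24 other liver transcription factors, 20 were tested, 1 was higher in EpCAM+ cells and 5 were lower, with a median log2 difference of -0.91, where all 12281 genes tested had a median of 0.03 and the 8 members 0.03. Onecut2, the paralog of the unmeasured Onecut1, was higher by 2.39 (SE 0.26, limma adjusted p = 0.011), with 17236.5 (Alb-Cre+/+), 14274.5 (Alb-Cre+/-), 9965.7 (Mx1-Cre) and 16059.0 (DDC) in EpCAM+ cells, against 2563.1 in Alb-Cre+/+ hepatocytes and 2805.3 in wild type hepatocytes. Lower were Creb3l3 (-3.39), a regulator of lipid genes, Atf5 (-3.04), Tbx3 (-3.02), Nr1h3 (-2.83), an oxysterol receptor, and Rxra (-1.95), the partner with which Nr1i3 binds DNA. Nr0b2 and Gata4 were not above background on any array.

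Most of the textbook target genes tested were lower in EpCAM+ cells. Of 21 targets, 18 were tested, 0 were higher and 11 lower, with a median log2 difference of -3.87, and all 18 differences were negative. Apoa1, Apob, Ttr, Cps1, Arg1 and Tat are also hepatocyte markers of the list used above, so the lists are not separate readings. Tat, Scarb1 and Nr0b2 were not above background. The largest differences among those called were Cyp8b1 (-6.75), a bile acid enzyme and target of Nr5a2, Arg1 (-6.37) and Cps1 (-5.67), urea cycle genes controlled by Cebpa, Apoc3 (-6.16), an apolipoprotein controlled by Hnf4a, and G6pc (-5.28), a gluconeogenic gene controlled by Foxa factors. The 3 targets of Nr1i3 (Cyp2b10, -2.67, Cyp2c29, -3.66, and Ugt1a1, -0.54) did not pass, and Cyp2b10 and Cyp2c29 differed between the hepatocyte arrays themselves, with 315.7 and 377.1 in Alb-Cre+/+ hepatocytes, against 2930.0 and 5587.0 in wild type hepatocytes. Of 11 biliary and progenitor factors, 10 were tested and 2 were higher, Sox9 (4.04, SE 0.56, limma adjusted p = 0.02) and Gata6 (2.82, SE 0.41, limma adjusted p = 0.023), with a median of 2.59.

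**Figure D4:**
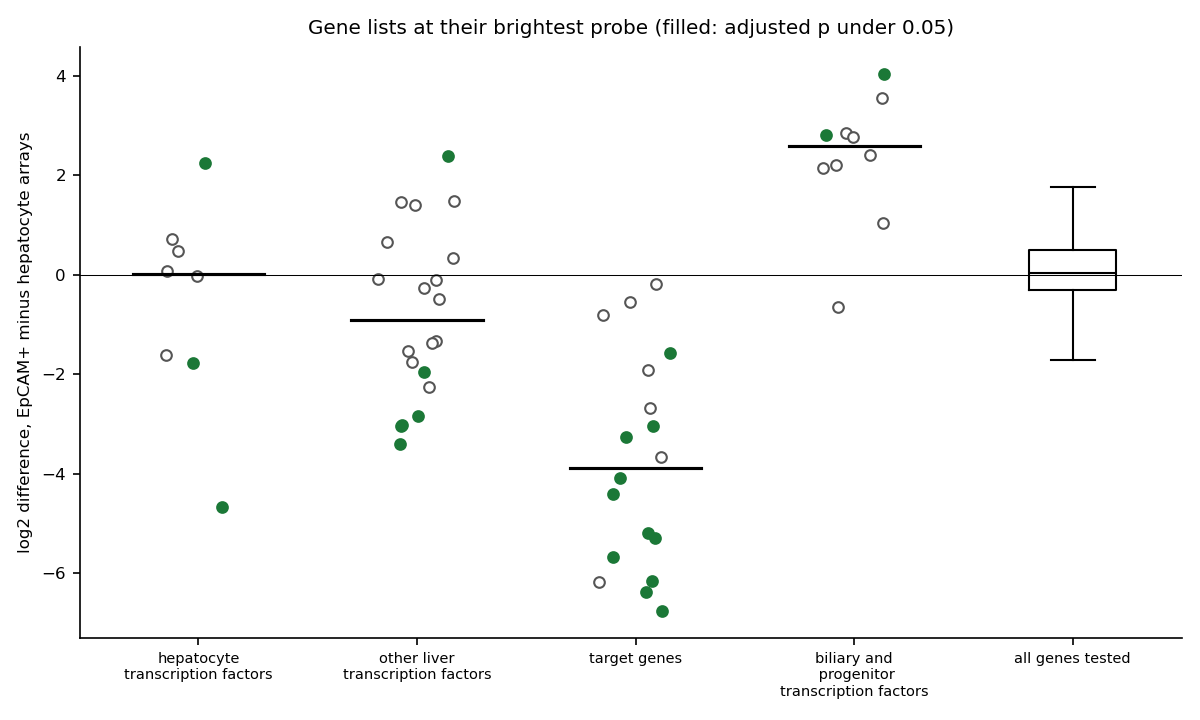
log2 difference of EpCAM+ minus hepatocyte arrays at the brightest probe of each gene, for the 8 members, 20 other liver transcription factors, 18 target genes and 10 biliary and progenitor factors, with all 12281 genes tested as a box (quartiles, whiskers at the 5th and 95th percentiles). Points are genes, filled where the adjusted p was under 0.05, and bars are medians (0.03, -0.91, -3.87 and 2.59). The members spread on both sides of 0 while the targets lie below it.

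The genes whose profile over the 6 arrays was most like that of a member were taken from 9955 genes by Pearson's r of log2 signals. These values describe 6 arrays that fall into 2 fractions, so any gene that separates the fractions alike scores high, and no p is given. Nr1i3 was closest to Cyp2e1 (r = 0.9997), Uroc1 (0.9997) and Ces1f (0.9995), all bright in hepatocytes. Cyp2e1, a drug and alcohol metabolizing enzyme, read 78.73 to 244.2 on the EpCAM+ arrays, against 26554.6 in Alb-Cre+/+ hepatocytes and 55925.3 in wild type hepatocytes. Hnf4a was closest to Derl2 (0.9966), Grhpr (0.9948) and G6pc (0.9934), listed above as a Foxa target. Foxa3 was closest to Abcc9 (0.9975), Smim26 (0.9967) and Tlcd4 (0.9959). Foxa1 was closest to Hbegf (0.9983), a growth factor, Rab25 (0.9982), an epithelial trafficking protein, and Arpc5 (0.9970). Nr5a2 was closest to Celf4 (0.9897), Cyrib (0.9857) and Kmt2c (0.9836), and Prox1 to Plekhg3 (0.9912), Rrm1 (0.9870) and Dcaf7 (0.9853).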

How the data were processed

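The authors summarised each array in GenomeStudio and deposited, per probe, the intensity without normalization, the detection p-value, the count of beads and the standard error over beads. They also deposited intensities quantile normalized across the arrays. Sorted values of that table differed from the mean of the sorted raw intensities by at most 4.13%. Of the probes, 34885 had 1 gene symbol in the platform annotation, 18 several and 10378 none.

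Probes were kept where any array gave a detection p under 0.05. Their normalized intensities were raised to a floor of 115 (the median of the lowest signals above background) and taken to log2. limma 3.58.1 (lmFit, eBayes with trend) in R 4.3.3 compared 4 EpCAM+ with 2 hepatocyte arrays, and, in a second fit with hepatocytes as the third group, 3 mutant EpCAM+ arrays with the lone DDC array, with Benjamini-Hochberg adjustment over all probes. The fit of EpCAM+ against hepatocyte arrays was tested on simulated data, and the fit with the lone DDC array was not. Folds of single arrays have no test. The number of arrays limits the precision. All 6 arrays were on 1 slide.

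Every member probe is given. From lists, up to 5 called genes with the largest difference were named, besides those not measured (some list genes are not reported here), and 3 genes most like each member. The members and lists were chosen with earlier results of these data known. Alternatives were own quantile normalization, median scaling, normexp background (offset 16), a floor of 1, a detection p under 0.01, no filter, probes above background on every array of 1 group, 1 probe per gene, eBayes without trend, array quality weights, only EpCAM+ arrays, and each array left out.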

Additional observations from a re-analysis of the deposited data

Results flagged for a closer look

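In a group of 4 arrays, 2 member probes had a highest reading that stood apart from the other 3 by Dixon's ratio of gap to range, which chance alone gives in about 1 of 20 groups. Nr5a2 probe 3 had a ratio of 1 in EpCAM+ cells, with 121.6 in Alb-Cre+/+ and 100.7 to 112.8 in the other 3 samples, none of which was above background. Nr1i3 probe 4 also had a ratio of 1 in EpCAM+ cells, with 115 in Alb-Cre+/- and 99.3 to 107.3 in the other 3, again not above background. In both, the other 3 readings were raised to the same floor of 115, which fixes the ratio at 1 by construction.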

How the results depend on the processing

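The calls at Nr1i3 probes 1 to 3 held under every alternative, and no test result turned its sign while past the threshold. Hnf4a (-1.62) passed with median scaling (-2.21), a floor at 1 (-1.62) and a filter to probes detected throughout either fraction (the group filter, -1.62), and its log2 difference ran from -2.12 to -1.12 with 1 array left out, passing without Alb-Cre+/+ hepatocytes. Foxa1 (2.25) no longer passed with median scaling (2.03), no filter (2.25), no trend (2.25) or array weights (2.32), and ran from 1.67 to 2.83 with 1 array left out. Foxa3 (-1.78) no longer passed with no filter (-1.78) or array weights (-1.72), and ran from -1.88 to -1.63. Cebpa (-0.02) ran from -0.04 to 0.00 and passed at -0.04 without wild type hepatocytes, a difference set by the floor. Without passing in either setting, Nr5a2 probe 2 turned to -0.08 without Alb-Cre+/+ hepatocytes and probe 3 to 0.02 without wild type hepatocytes.

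Probes called higher in EpCAM+ cells (590) numbered 1064 with a floor at 1, 157 with no filter, 1382 with the group filter and 160 with array weights, and 52 (without Mx1-Cre EpCAM+) to 1045 (without Alb-Cre+/+ hepatocytes) with 1 array left out. Those called lower (951) numbered 421 with no filter, 1474 with the group filter and 505 with array weights, and 262 to 2871 without the same 2 arrays. The share of calls that were higher, 38.3%, was 48.4% with the group filter, 27.2% with no filter, 24.1% with array weights, and 14.9% (without wild type hepatocytes) to 29.4% (without Alb-Cre+/+ EpCAM+) with 1 array left out. Between mutant and DDC EpCAM+ cells, in counts added after the data were seen, the 5 probes higher became 2 with own quantile normalization, 0 with median scaling, 3 with normexp, 0 with a floor at 1 and 3 at a detection p under 0.01, and 1 to 7 with 1 array left out. The 420 lower became 0 with median scaling, 0 with a floor at 1, 245 at a detection p under 0.01 and 766 with only EpCAM+ arrays, and 288 to 727 with 1 array left out. At an unadjusted p under 0.05, the reported fit held 318 higher and 1279 lower.

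Probes over 2-fold moved most with median scaling. In Alb-Cre+/+ over wild type hepatocytes, 2860 were higher (1292 in the reported setting) and 535 lower (1404, and 2350 with normexp). In Alb-Cre+/+ EpCAM+ cells over hepatocytes of that genotype, 1420 were higher (2300) and 3251 lower (2075). In Mx1-Cre EpCAM+ cells over wild type hepatocytes, 1570 were lower (2502). Over DDC, 2446 were lower in Alb-Cre+/+ (1278) and 1305 in Alb-Cre+/- (749, and 1232 with normexp), and 1180 were higher in Mx1-Cre with normexp (768). Median scaling also turned the sign of Foxa3 and Prox1 in Alb-Cre+/+ over DDC EpCAM+ cells (log2 fold -0.12 and -0.47). The causes were not tested. No paired analysis was possible because each condition has 1 array. Signals below about 115 (159.2 on the wild type hepatocyte array) are bounded by background, so readings there carry no order. This holds for most of Foxa2 and Cebpa and for the EpCAM+ readings of Nr1i3 probes 2 to 5.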

Other observations

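Dbp and Tef, clock-controlled leucine zipper factors of the other liver transcription factors, were picked out after their values were seen. Dbp read 1097.5 (Alb-Cre+/+), 5599.4 (Alb-Cre+/-), 6262.6 (Mx1-Cre) and 6794.0 (DDC) in EpCAM+ cells, against 1072.7 in Alb-Cre+/+ hepatocytes and 2162.0 in wild type hepatocytes. Both samples of the Alb-Cre+/+ genotype were the lowest. Tef read 476.6 (Alb-Cre+/+), 958.2 (Alb-Cre+/-), 1946.3 (Mx1-Cre) and 1336.1 (DDC) in EpCAM+ cells, against 978.2 in Alb-Cre+/+ hepatocytes and 2164.3 in wild type hepatocytes. For Tef, Alb-Cre+/- EpCAM+ cells lay between the samples of the Alb-Cre+/+ genotype. Neither Dbp nor Tef passed the comparison of fractions (limma adjusted p = 0.39 for Dbp and 0.68 for Tef). Hlf, on the same list, had a different order. It read 171.4 (Alb-Cre+/+), 136.5 (Alb-Cre+/-), 134.8 (Mx1-Cre) and 114.1 (DDC) in EpCAM+ cells. In hepatocytes it read 120.2 (Alb-Cre+/+) and 226.3 (wild type).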
